A study of Homo sapiens with 6 samples.

Results

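The C/EBP genes were followed in 6 RNA libraries of HL60, a human promyelocytic leukaemia cell line. The members are the 6 genes listed by name as CEBPA, CEBPB, CEBPD, CEBPE, CEBPG and CEBPZ, out of 56638 gene names in the count table, and all 6 had enough counts to be tested. In 3 libraries SKI, the gene of a transcriptional co-repressor, had been deleted with CRISPR/Cas9, and 3 libraries came from HL60 cells carrying a CRISPR/Cas9 control. Both groups were grown in RPMI with 10% FCS. Titles number the knockout line 3 and the control line 1, so each group held 1 line. The deletion of SKI and any other difference between these lines therefore cannot be told apart. Replicates are not stated to be separate cultures, so p-values rest on a spread between libraries that may be technical.

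C/EBP proteins bind DNA as dimers through a basic region and a leucine zipper. C/EBP-alpha, encoded by CEBPA, is needed for myeloid progenitors to enter the granulocyte lineage, and C/EBP-epsilon, encoded by CEBPE, acts later, when neutrophils and eosinophils make their specific granules. C/EBP-beta and C/EBP-delta respond to inflammatory signals, and C/EBP-gamma lacks an activation domain and pairs with other family members and with ATF4. CEBPZ shares the symbol but not the zipper: it encodes a CCAAT-binding protein of the nucleolus.

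Library totals ran from 47930276 to 58553247 counts, and 3 counts, the most that a count of 0 allows, stood for 0.0509 to 0.0628 CPM (counts scaled to the size of the library, with TMM factors). In the knockout SKI mRNA was lower and still present, with 59.6, 40.7 and 42.0 CPM against 63.9, 83.5 and 88.5 CPM in the control. Its log2 fold change was -0.73 (SE 0.19, edgeR adjusted p = 0.0282), a call that was lost without control replicate 2 (adjusted p = 0.109), control replicate 3 (0.136) or knockout replicate 2 (0.0769). With library totals SKI was at -0.69 (0.0673), and after neighbour centring at -0.44 (0.213). Of 8 promyelocyte markers 7 had at least 3 counts in every library. ELANE, the neutrophil elastase gene, had at most 4 counts in any library. Lists of markers of other blood cells were mixed: the mature neutrophil gene FCGR3B, the B cell gene MS4A1 and the platelet gene PF4 were at 0 in all 6 libraries, but other genes of these lists were present. The B cell factor gene PAX5 was at 22.2 to 36.2 CPM in the control and 12.1 to 22.7 CPM in the knockout. The summed level of 5 T cell markers, mostly TRAC, was 12.5 to 20.3 CPM in the control and 3.34 to 7.83 CPM in the knockout. The part of these markers in the results was not tested.

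The bases before the transcription start are shown for CEBPA, which was lower in the knockout, for its chromosome 19 neighbour CEBPG, which did not pass the test, and for CEBPB, which was higher. They are RefSeq sequences on GRCh38.p14, a later build than that of the counts, and bases annotated as UTR in GENCODE release 29 were left out. Windows were examined for 5 of the 6 members and not for CEBPD, so its lack of a window is not a result. The whole CEBPE window lay within an annotated UTR. CEBPA is read from chr19:33302565-33302784 on the minus strand, CEBPG from chr19:33373896-33374112 on the plus strand before the more downstream of its listed starts, and CEBPB from chr20:50190333-50190582 on the plus strand. Capitals mark a match to any of 7 motifs.
CEBPA: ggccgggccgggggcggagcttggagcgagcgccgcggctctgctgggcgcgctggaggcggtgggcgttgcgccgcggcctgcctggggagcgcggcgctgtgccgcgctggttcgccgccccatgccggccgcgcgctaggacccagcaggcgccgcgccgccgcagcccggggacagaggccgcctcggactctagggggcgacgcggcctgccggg
CEBPG: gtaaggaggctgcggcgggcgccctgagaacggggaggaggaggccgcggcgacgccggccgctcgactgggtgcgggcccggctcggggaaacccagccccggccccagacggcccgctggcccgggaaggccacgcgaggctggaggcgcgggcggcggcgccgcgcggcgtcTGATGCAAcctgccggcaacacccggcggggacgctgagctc
CEBPB: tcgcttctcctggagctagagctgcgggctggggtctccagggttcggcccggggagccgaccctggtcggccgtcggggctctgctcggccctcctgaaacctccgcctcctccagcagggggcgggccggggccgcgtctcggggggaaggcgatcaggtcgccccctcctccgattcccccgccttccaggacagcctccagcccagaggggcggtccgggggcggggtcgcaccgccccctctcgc
The motifs were searched on both strands as the C/EBP site TTGCNNAA, the C/EBP-ATF site TGATGNAA, the CCAAT box CCAAT, the E-box CACGTG, the PU.1 site GAGGAA, the RUNX site TGTGGT and the core of the CRE, TGACG. In the 250 bases before the start, these letters occur in 9.1%, 3.1%, 32.0%, 6.3%, 23.6%, 11.0% and 21.2% of 35114 promoter windows. None of the 7 motifs occurs in the CEBPA window shown, whose GC content is 82.3%, or in the CEBPB window shown. The match in CEBPG is to the C/EBP-ATF site and begins 42 bases before the start. At the other listed start of CEBPB, CCAAT begins 245 bases and TGACG 57 bases before the start, and at the other start of CEBPG, CCAAT begins 85 and 24 bases before it. Before CEBPE the PU.1 letters begin 41 bases before the start, and before CEBPZ the PU.1 letters begin 223 bases and TGACG 174 bases before it. These matches describe the letters only.

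CEBPA and CEBPE, the family members of granulocyte development, fell in the knockout. CEBPA was at 321, 219 and 252 CPM in control replicates 1, 2 and 3 and at 70.3, 106 and 71.7 CPM in the knockout replicates. The highest knockout library, replicate 2, was still below the lowest control library, and the groups did not overlap. Means were 264 ± 52.3 and 82.7 ± 20.4 CPM (SD, n = 3), and on the log2 scale the difference was -1.67 (SE 0.21, 95% interval -2.13 to -1.22, edgeR adjusted p = 0.000823). CEBPE was at 457, 361 and 437 CPM in the control and at 154, 148 and 218 CPM in the knockout, again without overlap. Its means were 418 ± 50.5 and 173 ± 38.8 CPM (SD, n = 3), with a difference of -1.27 on the log2 scale (SE 0.19, 95% interval -1.68 to -0.86, edgeR adjusted p = 0.00194). Knockout replicate 2 held the highest CEBPA and the lowest CEBPE value of its group, so these genes did not vary together among the knockout libraries. Both calls held in each of the 6 fits that left out 1 library, with log2 fold changes of -1.87 to -1.51 for CEBPA and -1.45 to -1.14 for CEBPE. The authors' deposited table gives -1.54 for CEBPA and -1.17 for CEBPE on the log2 scale.

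**Figure D1:**
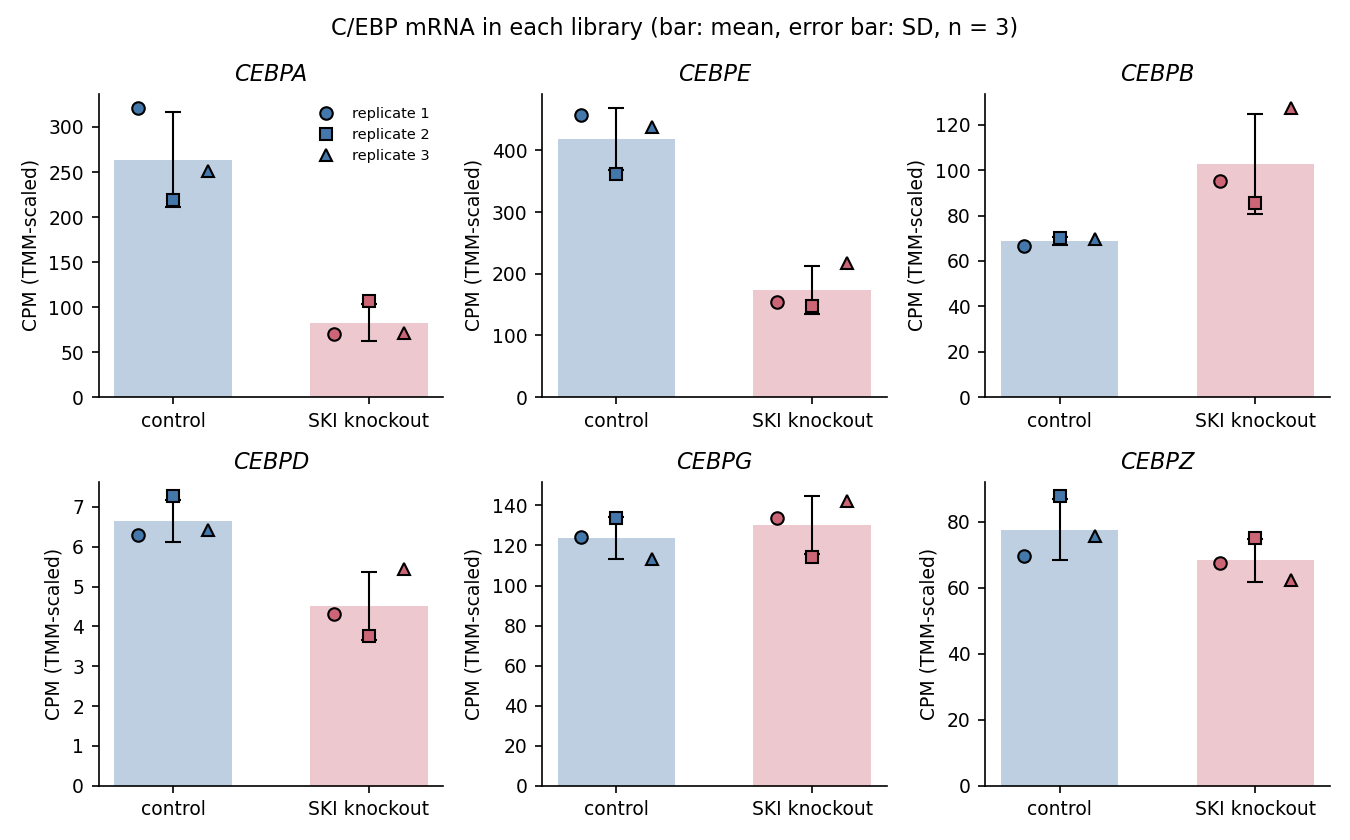
TMM-scaled CPM (y axis, from 0, a scale of its own in each panel) of the C/EBP genes in the control and SKI knockout libraries; bars are means, error bars SD (n = 3), and symbols the replicates. CEBPA, CEBPE and CEBPD lie lower in all knockout libraries and CEBPB higher, while the groups overlap for CEBPG and CEBPZ.

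In all, 3 of the 6 members passed the threshold of an adjusted p under 0.05, where 11.8% of the 16340 genes tested did. CEBPA and CEBPE were lower, as were 5.63% of all genes, and CEBPB was higher, as were 6.19%. Groups did not overlap for 4 members, against 32.2% of all genes tested. The summed level of the promyelocyte markers, which is mostly that of the myeloperoxidase gene MPO and includes CEBPE, moved with these changes, from 12814 to 15072 CPM in the control to 3181 to 9280 CPM in the knockout. That of 6 mature neutrophil markers, which is almost all that of CSF3R, went from between 29.9 and 39.2 CPM to between 79.7 and 91.8 CPM. CXCR2 went from a mean of 0.722 to 3.81 CPM and was called higher, as were CSF3R and, near the floor, S100A9. FCGR3B was at 0 throughout, and S100A8 and S100A12 were too low to be tested. The summed level of 5 eosinophil markers went from between 21.5 and 47.1 CPM to between 55.7 and 64.8 CPM. There CLC went from a mean of 11.1 to 29.6 CPM, and EPX and IL5RA were also called higher. PRG2 was at means of 22.2 and 22.7 CPM, and CCR3 was too low to be tested. The part of these markers in the C/EBP values was not tested. In RNA from whole cultures, a change in cell numbers of a kind and in the mRNA of each cell cannot be told apart.

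A second row of the count table followed CEBPA almost read for read. The row named AC008738.1 held 94.4% to 97.6% of the CEBPA count in each of the 6 libraries and had a log2 fold change of -1.65 (edgeR adjusted p = 0.000859). The position of this row, and whether it counts the same reads, are items not given in the sources used here. In GENCODE release 29, exons of 2 antisense genes overlap the single exon of CEBPA, by 659 and 482 bases, and CEBPB-AS1 overlaps CEBPB by 231 bases. The sources used here do not give the strand setting of the counting.

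CEBPB, the inflammatory and stress-responsive member, rose, and CEBPD, its relative in the acute-phase response, was low in both groups. CEBPB was at 66.7, 70.0 and 69.5 CPM in the control and at 95.1, 85.3 and 127 CPM in the knockout. The control libraries lay close together, the knockout libraries spread upwards, and the groups did not overlap. Means were 68.7 ± 1.78 and 103 ± 22.0 CPM (SD, n = 3), 1.49-fold higher (log2 0.58, SE 0.17, 95% interval 0.21 to 0.95, edgeR adjusted p = 0.0455). This call stood close to the threshold. Leaving out 1 control library ended it, with log2 fold changes of 0.56, 0.59 and 0.58 and adjusted p-values of 0.141, 0.142 and 0.148 without replicates 1, 2 and 3. Leaving out knockout replicate 1 gave 0.65 (0.0800) and leaving out knockout replicate 3 gave 0.41 (0.0637). CEBPD had 182 to 428 counts a library, or 6.30, 7.26 and 6.41 CPM in the control and 4.32, 3.77 and 5.45 CPM in the knockout. All knockout values were lower, but the log2 fold change of -0.56 (SE 0.22) did not pass at an edgeR adjusted p of 0.122, with a 95% interval of -1.04 to -0.08 before adjustment over all genes.

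CEBPG and CEBPZ did not pass the test. CEBPG was at 124, 134 and 113 CPM in the control and at 134, 114 and 142 CPM in the knockout, so that the ranges of the groups overlapped. Its log2 fold change was 0.07 (SE 0.15, edgeR adjusted p = 0.801), and the 95% interval of -0.26 to 0.40 holds changes in either direction. CEBPZ was at 69.5, 87.7 and 75.7 CPM in the control and at 67.4, 75.04 and 62.3 CPM in the knockout (log2 -0.19, SE 0.15, 95% interval -0.52 to 0.15, edgeR adjusted p = 0.470). CEBPZOS, a small mitochondrial protein gene on the opposite strand that shares 351 exonic bases with CEBPZ, is listed in the table under its older name CEBPZ-AS1. It was at 41.3, 34.5 and 29.5 CPM in the control and at 55.4, 46.2 and 84.6 CPM in the knockout, with a log2 fold change of 0.82 (edgeR adjusted p = 0.0336). The call for CEBPZ-AS1 was lost without control replicate 2 (0.111), control replicate 3 (0.158) or knockout replicate 1 (0.0720), and reads of this pair cannot be told apart if strand was not used.

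Per length of gene model, CEBPE was the most abundant of the 6 members in both groups, and CEBPA and CEBPB exchanged places. In RPKM, which is CPM divided by the length of the gene model in kilobases, the control order was CEBPE at 269 ± 32.5, CEBPA at 100.3 ± 19.9, CEBPB at 37.4 ± 0.969, CEBPG at 28.1 ± 2.33, CEBPZ at 21.4 ± 2.55 and CEBPD at 3.06 ± 0.243 (SD, n = 3). No neighbours in this order had overlapping ranges. In the knockout the order was CEBPE at 112 ± 24.97, CEBPB at 55.9 ± 11.98, CEBPA at 31.5 ± 7.76, CEBPG at 29.5 ± 3.28, CEBPZ at 18.8 ± 1.76 and CEBPD at 2.07 ± 0.394 RPKM (SD, n = 3). There CEBPA and CEBPG overlapped, at 26.7 to 40.4 and 25.9 to 32.3 RPKM. By mean RPKM, CEBPE stood above 99.1% of tested genes in the control and 97.9% in the knockout, CEBPA above 97.7% and 91.4%, and CEBPD above 50.4% and 42.7%.

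In the summed mRNA of the C/EBP genes, the shares of CEBPE and CEBPA were smaller in the knockout and those of CEBPB and CEBPG larger. The level of CEBPG itself did not pass the test (log2 0.07), and its share is larger over a smaller sum. The summed level of the 5 zipper-bearing members was 483, 387 and 443 RPKM in the control and 210.0, 209.5 and 272 RPKM in the knockout. CEBPE supplied 60.0% to 63.4% of it in the control and 45.4% to 51.6% in the knockout. The share of CEBPA was 25.3%, 21.5% and 21.6% in the control and 12.7%, 19.3% and 10.03% in the knockout. CEBPB went from between 7.51% and 9.84% to between 22.2% and 25.5%, and CEBPG from between 5.79% and 7.83% to between 11.9% and 14.4%. Ranges of the groups did not overlap for any of these 4 shares, while CEBPD supplied under 1% in every library. Shares of a library add up to the whole, so the 4 are not independent of each other. The mean level of CEBPB went from 37.4 to 55.9 RPKM while the mean sum went from 438 to 230 RPKM. Its share, too, is taken over a smaller sum in the knockout. Gene counts do not separate the long and short proteins made from CEBPA and CEBPB mRNA.

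**Figure D2:**
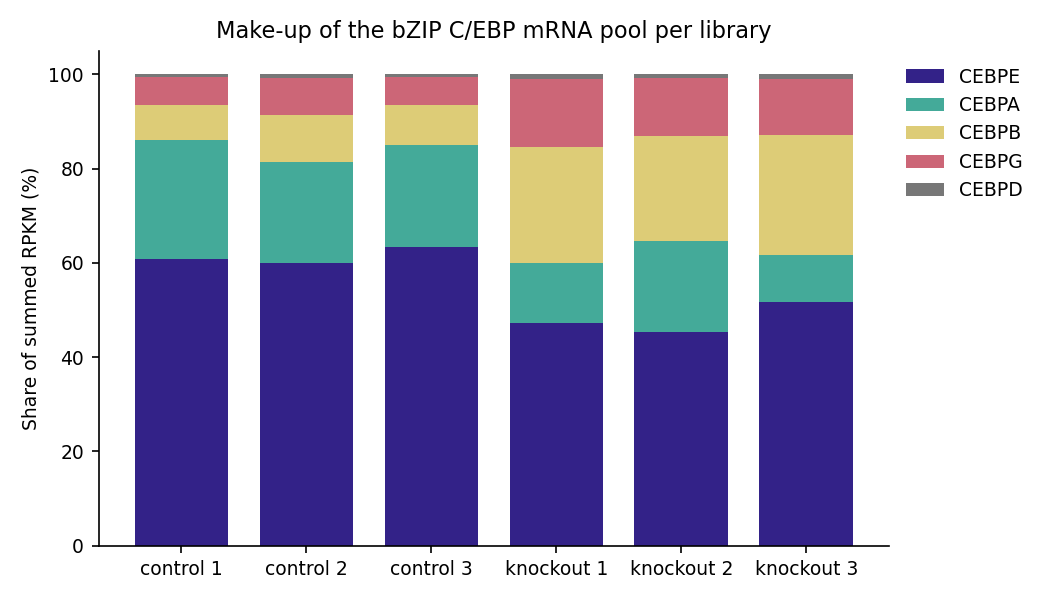
Share (y axis, percent) of each C/EBP gene with a leucine zipper in their summed RPKM, in each of the 6 libraries (x axis). CEBPE holds 60.0% to 63.4% in the control and 45.4% to 51.6% in the knockout, and the CEBPB share is larger in every knockout library than in any control library.

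Ratios within a library do not depend on scaling between libraries, and 3 of them were compared. The log2 ratio of CEBPA to CEBPB was 2.27, 1.64 and 1.86 in the control and -0.44, 0.32 and -0.83 in the knockout, so CEBPA exceeded CEBPB by count in all control libraries but in 1 knockout library, replicate 2. That of CEBPA to CEBPG was 1.37, 0.71 and 1.15 in the control and -0.93, -0.10 and -0.99 in the knockout. Neither ratio overlapped between the groups, with differences of -2.24 and -1.75. They are made of the same values as the log2 fold changes of CEBPA (-1.67), CEBPB (0.58) and CEBPG (0.07), and add no separate evidence. For each of these ratios the two-sided exact permutation p was 0.1, the smallest that 3 against 3 libraries allow, and 0.15 adjusted over the 3 ratios. The log2 ratio of CEBPA to CEBPE differed by -0.39, from -0.68 ± 0.15 to -1.07 ± 0.57 (SD, n = 3, exact permutation p = 0.4), and its groups overlapped.

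CEBPA and CEBPE lie among genes that were lower in the knockout line as a whole. GENCODE release 29, matched by symbol, gave gene order and chromosome, and these comparisons were chosen with earlier results of these data known. Over 660 well-counted genes of chromosome 19, which carries CEBPA and CEBPG, the median log2 fold change was -0.48, and over 322 genes of chromosome 14, which carries CEBPE, it was -0.19. Chromosomes 2, 8 and 20, which carry CEBPZ, CEBPD and CEBPB, had medians of -0.01, -0.03 and -0.01. Of the 25 well-counted genes on either side of CEBPA, 43 of 50 had a log2 fold change below 0, as did 85.6% of those on chromosome 19. Their median was -0.35, none was as low as CEBPA, and 11 were called lower. Around CEBPE 44 of 50 lay below 0, where 66.5% of those on chromosome 14 did. Here the median was -0.38, 2 genes had a lower value than CEBPE, and 11 were called lower. Of all genes tested 5.63% were called lower. CEBPG, the next well-counted gene after CEBPA, exceeded 45 of its 50 neighbours.

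**Figure D3:**
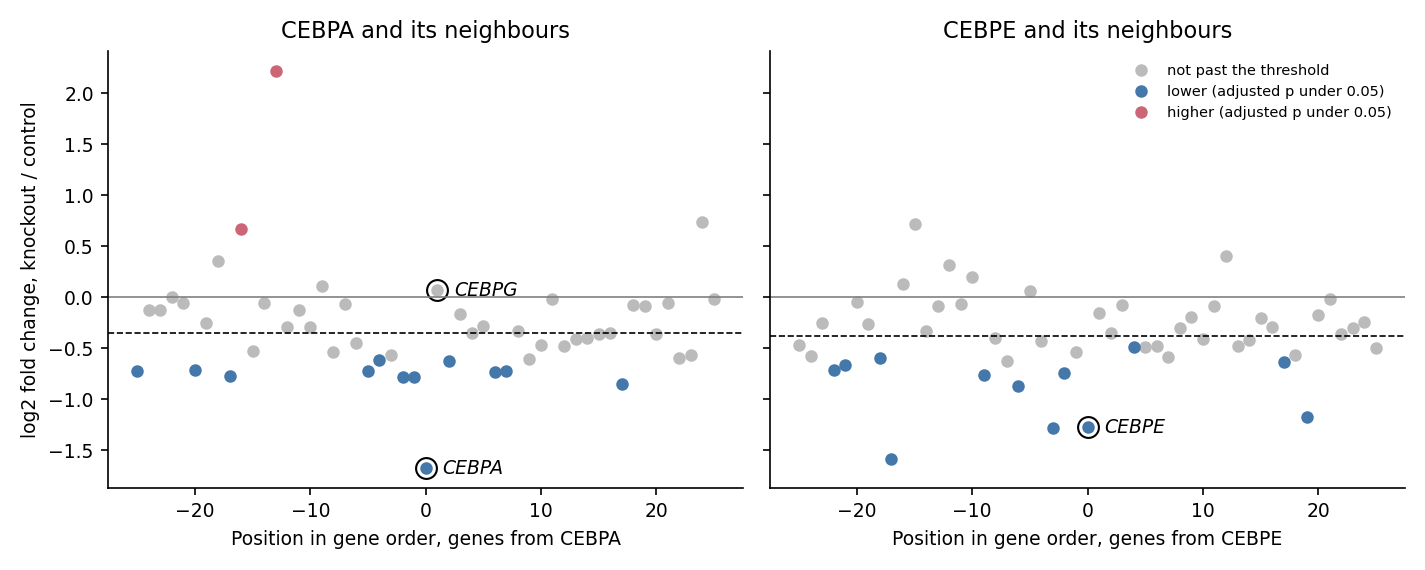
Log2 fold change (y axis, knockout over control) of the 25 well-counted genes on either side of CEBPA (left) and CEBPE (right), by gene order (x axis); circled points are C/EBP genes and the dashed line is the median of the neighbours, -0.35 and -0.38. CEBPA lies below all 50 of its neighbours and CEBPG, next to it, above the median.

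Centring each gene on its surroundings reduced the decreases and raised CEBPG. With each gene centred on its chromosome, CEBPA was at -1.19 (adjusted p = 0.00665) and CEBPE at -1.09 (0.00421), and centred on 50 neighbours they were at -1.33 (0.00292) and -0.93 (0.00486) in edgeR, all past the threshold. CEBPG had a log2 fold change of 0.54 after chromosome centring and then passed (edgeR adjusted p = 0.0382), but not after neighbour centring (0.42, adjusted p = 0.104). CEBPB kept its size, at 0.59 and 0.61, and missed the threshold (0.0528 and 0.0680).

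**Figure D4:**
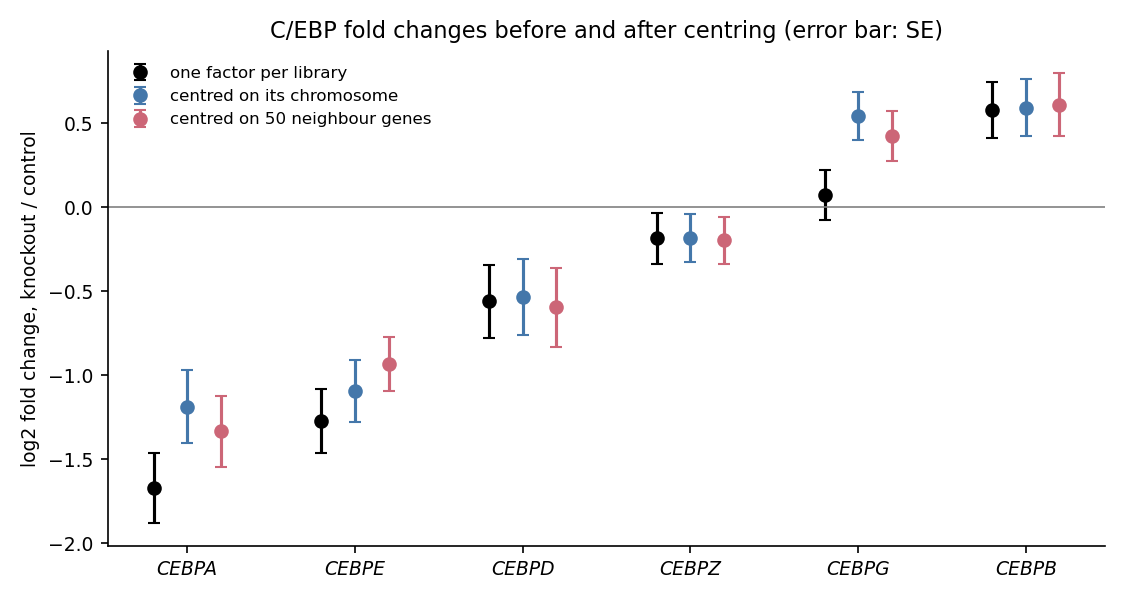
Log2 fold change with SE (y axis, knockout over control, 3 libraries a group) of the C/EBP genes (x axis) with 1 scaling factor per library, and centred on the gene's chromosome or its 50 neighbour genes. CEBPA and CEBPE move towards 0 and stay lower, CEBPG moves from 0.07 to 0.54 and 0.42, and the others move little.

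The genes most like each called member over the 6 libraries were taken from 10567 other genes whose average log2 CPM was at least 2. Likeness was the root mean square difference of log2 CPM profiles, each centred on its own mean. Besides AC008738.1, the genes nearest to CEBPA were RP11-800A3.4 and ACSS1, a mitochondrial acetyl-CoA synthetase, at 0.19 and 0.23. For CEBPE they were LENG9, NPDC1 and MROH6 at 0.14, 0.15 and 0.15, and for CEBPB HMCES, AC068533.7 and MB21D1 at 0.05, 0.06 and 0.06. MB21D1 encodes the DNA sensor cGAS, and HMCES a protein that shields abasic sites. CEBPE was at 0.39 from CEBPA and ranked 72 in likeness to it.

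Partners of C/EBP proteins moved in both directions. Of 10 genes for zipper proteins that dimerise with C/EBPs 9 were tested, of which 2 rose and 1 fell, while 6 missed the threshold. Their median log2 fold change was 0.37, against -0.01 over all genes tested. The 3 calls are 33.3% of the genes tested in this list, where 11.8% of all genes tested passed. Shares of lists were not tested. DDIT3, which encodes CHOP, a stress-induced family member that blocks DNA binding by its partners, was at 136, 99.8 and 101 CPM in the control and at 267, 176 and 407 CPM in the knockout. It rose 2.52-fold (edgeR adjusted p = 0.00809), and the groups did not overlap. ATF3, a stress-induced repressor, rose 1.95-fold (edgeR adjusted p = 0.00876). Both calls were lost without control replicate 3, at adjusted p-values of 0.0597 and 0.0584. ATF5, an ATF4 relative on chromosome 19, went from 1062 ± 70.4 to 642 ± 126 CPM (SD, n = 3, log2 -0.73, edgeR adjusted p = 0.0288). The ATF5 change was -0.26 after chromosome centring (0.419) and -0.22 after neighbour centring (0.483), and its call was lost without control replicate 1 (0.0849), 2 (0.0784) or 3 (0.120) or knockout replicate 1 (0.0900). ATF4, the main partner of C/EBP-gamma, did not pass (log2 0.51, edgeR adjusted p = 0.118).

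Of 10 transcription factors that act upstream of C/EBP genes or with C/EBP proteins, 1 fell and 9 missed the threshold (median log2 fold change -0.28). That is 10% of the list, near the 11.8% of all genes tested that passed. RUNX1, a core factor of haematopoiesis, was at 83.8, 154 and 95.9 CPM in the control and at 42.8, 49.6 and 31.9 CPM in the knockout. It was 2.69-fold lower (edgeR adjusted p = 0.00364), with no overlap, and its log2 fold change was -1.38 after chromosome centring. SPI1, which encodes PU.1, had a log2 fold change of -0.42 and GFI1, a repressor in granulocyte precursors, one of -0.44, and neither passed (edgeR adjusted p = 0.0767 and 0.0870).

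Of 16 regulators of C/EBP mRNA or protein 4 fell and 12 missed the threshold (median log2 fold change -0.09). The 4 calls are 25% of the list, where 11.8% of all genes tested passed and 5.63% were called lower. TRIB1, a pseudokinase that directs C/EBP-alpha to degradation, was at 310, 257 and 303 CPM in the control and at 160, 173 and 121 CPM in the knockout, with a log2 fold change of -0.94 (edgeR adjusted p = 0.00581). Its relative TRIB2 was higher in every knockout library but did not pass (log2 0.57, edgeR adjusted p = 0.0541), and COP1, the ligase that both recruit, listed as RFWD2, was at 0.07 on the same scale. WDR5, a histone methyltransferase subunit that binds the short C/EBP-alpha protein, fell 2.02-fold (edgeR adjusted p = 0.00343), or by 0.54 on the log2 scale with neighbour centring (0.0785). CALR, reported to bind CEBPA mRNA, and GSK3A, a kinase of C/EBP-alpha, both on chromosome 19, had log2 fold changes of -0.85 and -0.55 (edgeR adjusted p = 0.0147 and 0.0244). After chromosome centring they were at -0.37 and -0.07 and did not pass (0.273 and 0.813), nor did they after neighbour centring (0.261 and 0.531), and GSK3A missed the threshold with library totals (0.0594). Without control replicate 1, 2 or 3 CALR had adjusted p-values of 0.0545, 0.0521 and 0.0668 and GSK3A of 0.110, 0.0954 and 0.0824, and without knockout replicate 1 CALR had 0.0507.

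**Figure D5:**
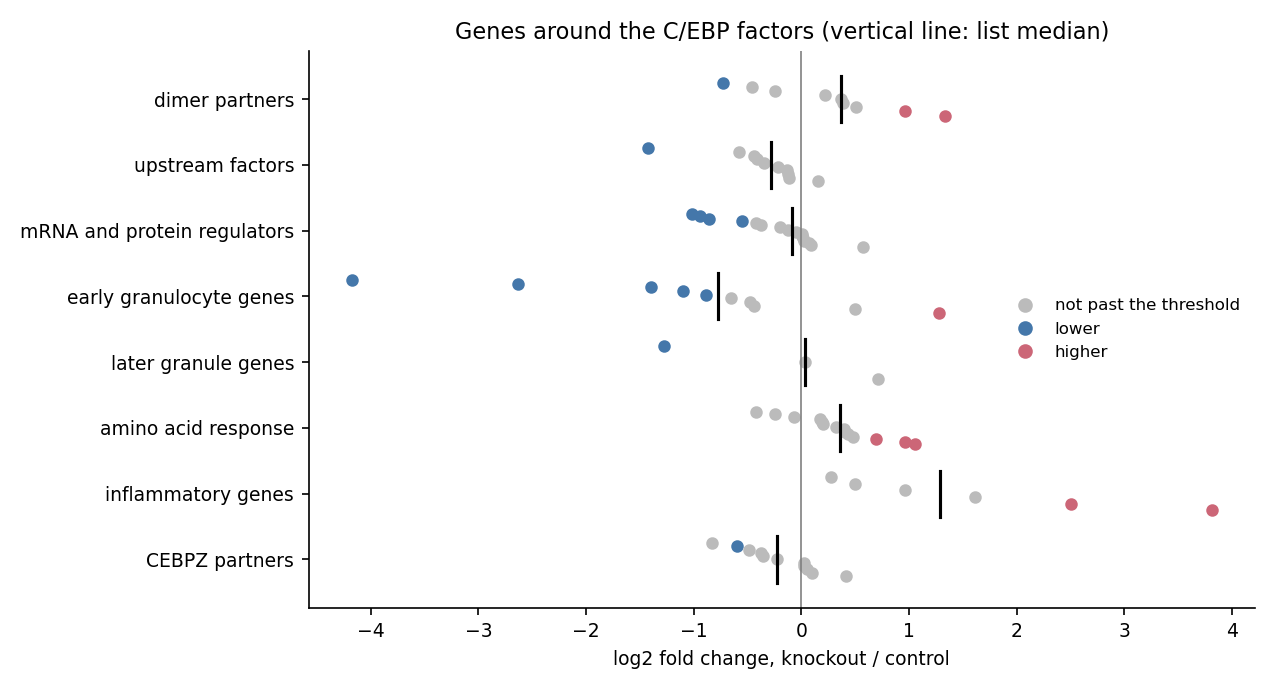
Log2 fold change (x axis, knockout over control) of the tested genes of 8 lists (y axis), 1 point a gene, with blue and red for genes lower and higher at an edgeR adjusted p under 0.05 and a black line for the list median. The early granulocyte list has the lowest median, -0.77, and the later granule list has 3 tested genes.

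Genes of early granulocyte development that C/EBP-alpha regulates included both decreases and an increase. Of 12 such genes 10 were tested, of which 5 fell, 1 rose and 4 missed the threshold (median log2 fold change -0.77). Of all genes tested 5.63% were called lower and 6.19% higher. The granule protein genes AZU1 and PRTN3, neighbours on chromosome 19, had log2 fold changes of -2.63 and -4.18 (edgeR adjusted p = 0.000591 and 0.000794). Without knockout replicate 2 that of PRTN3 was -5.30, and after neighbour centring those of AZU1 and PRTN3 were -1.97 and -3.51, both past the threshold. IL6R, the interleukin-6 receptor, was at 34.2, 40.9 and 30.3 CPM in the control and at 13.0, 21.5 and 14.6 CPM in the knockout, 2.14-fold lower (edgeR adjusted p = 0.00716). CSF3R, the G-CSF receptor and a textbook C/EBP-alpha target, went the other way, from 38.2, 28.95 and 32.3 CPM to 79.0, 87.1 and 75.01 CPM (log2 1.28, edgeR adjusted p = 0.000795).

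Of 18 granule genes that depend on C/EBP-epsilon, 15 had too few counts to be tested, among them LCN2, CRISP3, PGLYRP1, DEFA1, DEFA3, DEFA4, CD177 and ARG1 with 0 counts in all 6 libraries. Of the 3 tested, CHI3L1, a chitinase-like granule protein, fell from 1.67 ± 0.692 to 0.685 ± 0.0325 CPM (SD, n = 3, edgeR adjusted p = 0.0335). CHI3L1 was at -0.89 on the log2 scale and not called without control replicate 1 (0.165). Nor was it called when control replicate 3 (0.0641) or either of knockout replicates 1 (0.102) and 2 (0.0552) was left out. PRG2, the eosinophil major basic protein gene, was at 13.9 to 33.9 CPM in the control and 14.6 to 27.4 CPM in the knockout (log2 0.03). CAMP, also tested, was at 0.71 on the log2 scale (edgeR adjusted p = 0.204). The 1 call among 3 compares with 11.8% of all genes tested. Near the floor and untested, BPI had 0, 1 and 0 control counts against 11, 5 and 8 in the knockout. LTF had 2, 1 and 0 against 6, 1 and 26, and MMP8 1, 0 and 2 against 0 in each.

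Amino acid response genes, whose promoters or introns carry C/EBP-ATF elements, held 3 that rose and none that fell. Of 15 genes 14 were tested, of which 3 rose and 11 missed the threshold (median log2 fold change 0.36). Log2 fold changes were above 0 for 11 of the 14, and SLC7A5, PSAT1 and PHGDH lay below 0. Of all genes tested 6.19% were called higher. CTH, which makes cysteine from cystathionine, was at 26.5, 22.9 and 22.7 CPM in the control and at 48.5, 46.0 and 55.4 CPM in the knockout (log2 1.06, edgeR adjusted p = 0.00182). VEGFA, the endothelial growth factor gene on chromosome 6, had a log2 fold change of 0.97 (edgeR adjusted p = 0.00429). It was at 0.52 after chromosome centring (0.0709) and at 0.65, just past the threshold, after neighbour centring (0.0487). TRIB3, a pseudokinase induced by ATF4 and CHOP, rose by 0.69 (edgeR adjusted p = 0.0202), a call lost without control replicate 1 (0.0726), 2 (0.112) or 3 (0.0958).

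Inflammatory genes that C/EBP-beta and C/EBP-delta regulate were scarce. Of 16 genes 6 were tested, of which 2 rose and 4 missed the threshold (median log2 fold change 1.29). Of all genes tested 6.19% were called higher. IL6, PTGS2, SAA1 and ORM1 had 0 counts in every library. SERPINA1, the alpha-1-antitrypsin gene, was at 0.126, 0.0170 and 0 CPM in the control and at 0.452, 0.414 and 1.07 CPM in the knockout (log2 3.81, SE 0.77, edgeR adjusted p = 0.00909), and was not called without control replicate 3 (log2 3.21, adjusted p = 0.0534). Its log2 fold change was 5.89 without control replicate 1. S100A9, a calcium-binding alarmin, had 2 to 7 counts in control and 12 to 32 in knockout libraries (log2 2.51, edgeR adjusted p = 0.0147), or a log2 fold change of 3.12 without control replicate 1. That call was lost without control replicate 2 (0.0705), control replicate 3 (0.0896) or knockout replicate 1 (0.0702), and both genes stood near the floor of the counts. SERPINA1 and S100A9 passed the count filter only through the knockout libraries, where they were high. SOCS3, which was not called (log2 1.62, edgeR adjusted p = 0.0576), also needed the knockout libraries to pass it. The direction of these genes, the 2 calls and the list median were therefore partly set by the filter, and are given as values only.

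Around CEBPZ, 11 genes for nucleolar NOC proteins, NF-Y subunits, the m6A writer complex and HSP70 were tested, of which 1 fell and 10 missed the threshold (median log2 fold change -0.23). That is 9.09% of the list, near the 11.8% of all genes tested that passed. METTL3, the catalytic m6A writer that CEBPZ recruits to promoters in myeloid leukaemia, was at 152, 134 and 120 CPM in the control and at 90.0, 97.9 and 81.0 CPM in the knockout (log2 -0.59, edgeR adjusted p = 0.0265). METTL3 lies on chromosome 14, as CEBPE does. Its change was -0.41 after chromosome centring (0.121) and -0.17 after neighbour centring (0.521). The call was also lost with library totals (0.0501) and without control replicate 1 (0.129), 2 (0.0983) or 3 (0.0584) or knockout replicate 1 (0.0742). The NF-Y genes NFYA, NFYB and NFYC had log2 fold changes of 0.03, 0.05 and 0.10.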

How the data were processed

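Polyadenylated RNA was sequenced with a stranded kit, per the labels' protocols. The deposited values are raw read counts of each gene, with its length. The submitters' processing notes name TopHat2, Subread with featureCounts, DESeq, DESeq2 and hg19 (GRCh37). Their versions, the annotation and the strand setting were not given in the sources used here. A table from the authors holds their own log2 fold changes and adjusted p-values. Count columns were matched to libraries by group and replicate number. All 56638 genes entered edgeR's filterByExpr, TMM scaling and quasi-likelihood test with group as the only term (R 4.3.3 with edgeR 4.0.16 and limma 3.58.1). P-values were adjusted by Benjamini-Hochberg over the 16340 genes tested. Standard errors are the log2 fold change over the root of F. Log2 CPM used a prior count of 2, and RPKM the deposited gene lengths. The members and gene lists were chosen with earlier results of these data known. The text names the members, SKI, up to 4 called genes a list with the smallest p, and the 3 genes most like each called member. Genes that did not pass, the marker genes, PRG2 and CEBPZ-AS1 were named after their values were seen. COP1 and CXCL8 were found by older symbols. Annotation by symbol gave a chromosome to 79% of tested genes, and centring used medians of genes with an average log2 CPM above 2. The scripts were tested on counts simulated from the fitted means and dispersions, with known changes given to some well-counted genes. Of genes changed 1.5-fold 17.9% were called, of those changed 2-fold 83.6% and of those changed 4-fold 100%. A gene that did not pass may therefore still have changed. Alternatives were other size factors, library totals, other filters, DESeq2 1.42.0, limma-voom, a replicate block, both centrings and leaving out each library.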

Additional observations from a re-analysis of the deposited data

How the results depend on the processing

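CEBPA and CEBPE stayed lower and past the threshold in all 15 alternatives run. CEBPD and CEBPZ stayed lower and did not pass in any of them. CEBPB stayed higher in all of them, and lost its call in limma-voom (log2 0.56, adjusted p = 0.0534), with the replicate block (0.56, 0.0563), with chromosome centring (0.59, 0.0528) and with neighbour centring (0.61, 0.0680). Leaving out 1 library gave CEBPB log2 fold changes from 0.41 to 0.72, with 1 of 6 fits past the threshold. CEBPG passed only with chromosome centring (0.54). The count of genes called was 1932, and lay between 740 and 2488 when 1 library was left out, namely 740 and 932 when control replicates 3 and 2 were absent and 1025 when knockout replicate 1 was. It was 2107 with the replicate block. Deviations of same-numbered libraries from their group means correlated across genes at -0.17, 0.42 and -0.09 for numbers 1, 2 and 3. Between different numbers, control replicate 1 correlated at 0.54 with knockout replicate 3 and at -0.51 with knockout replicate 2. Not every same-numbered pair deviated together, so the numbers were not taken as pairs. The ratios of CEBPA to CEBPB, CEBPG and CEBPE kept their sign in every alternative run. Of the gene lists, the early granulocyte list stayed within 1.5 times its 6 calls in every alternative. The 3 dimer partners called became 0 without control replicate 3, the 4 regulators called became 2 with either centring or without any 1 control library, and the 1 CEBPZ partner called became 0 with library totals, either centring and 4 of the fits that left out a library. The 1 upstream factor called became 3 with neighbour centring, and the 2 inflammatory genes called became 4 with the replicate block or no filter and 0 with the filter of CPM at least 1. The cause was not tested for the calls that changed, and fits that left out a library had fewer samples.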

Other observations

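Among the knockout libraries, replicate 2 held the highest CEBPA value, 106 CPM against 70.3 and 71.7 CPM in the others. Of the 10 tested genes of early granulocyte development, 9 also had their highest knockout value in replicate 2, where 32.0% of all genes tested did. PRTN3 was at 1.32 CPM there and at 0.235 and 0.324 CPM in the other knockout libraries, AZU1 at 10.7 CPM against 4.64 and 4.71 CPM, and MPO at 8538 CPM against 3472 and 2562 CPM. The exception was CSF2RA, at 2.84 CPM in replicate 1 and 2.48 CPM in replicate 2. CEBPE was lowest in replicate 2, at 148 CPM. This rests on 3 libraries and was noticed in the data, so it is given as values only.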
